A study of Mus musculus with 12 samples.

Results

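The colony-stimulating factors and their receptors were followed over 9 mouse pancreatic tumours. The 9 genes were the receptor Csf1r and its ligands Csf1 and Il34, the GM-CSF receptor chains Csf2ra, Csf2rb and Csf2rb2 with the ligand Csf2 (GM-CSF), and the G-CSF receptor Csf3r with its ligand Csf3 (G-CSF). They were taken by gene symbol, which gave 17 of the 45281 probes on the array. Tumours came from 5 mice given an inhibitor of the CSF1 receptor (CSF1Ri) and 4 given vehicle (Vehicle), both in chow for 8 days. All were adult female C57BL/6J mice in which syngeneic pancreatic ductal adenocarcinoma cells in Matrigel had been implanted surgically in the pancreas, and all were perfused before the tumours were digested with collagenase. The sources used here do not name the inhibitor, its dose or the tumour cell line. Whole-tumour RNA was hybridised to 12 Illumina BeadArrays, 6 for each group, because CSF1Ri 1, Vehicle 1 and Vehicle 3 were hybridised a second time, and repeat arrays were averaged within the tumour.

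CSF1R is a receptor tyrosine kinase of monocytes and macrophages, which need it to survive and divide. CSF1 and IL-34 are unrelated in sequence yet bind the same receptor. GM-CSF signals through an alpha chain that binds it and a beta chain shared with the interleukin-3 and interleukin-5 receptors, and mice carry a further beta chain gene, Csf2rb2, that serves interleukin-3. G-CSF and its receptor drive the making and release of neutrophils, and pancreatic tumour cells can secrete GM-CSF and G-CSF.

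Csf1r was the only one of the 9 genes that passed the test, lower in CSF1Ri tumours, while its ligands Csf1 and Il34 were measured in every tumour and gave no call. Csf2ra had a difference of similar size with overlapping groups. Csf2rb2 and Csf3r lay close to the detection limit, and Csf2rb, Csf2 and Csf3 were at or under it in most tumours. Levels are normalised log2 intensities for each tumour, means are given ± SD (n = 5 CSF1Ri, n = 4 Vehicle), and log2 fold changes, with standard errors (SE) from limma, give CSF1Ri minus Vehicle. Levels of different probes on these arrays are not comparable with each other, so the genes were compared by their changes only. Adjusted p-values are from limma with Benjamini-Hochberg adjustment over all 9788 genes tested, with a threshold of 0.05.

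Arrays had between 16219 and 17847 detected probes. The mean unscaled intensity was 142 to 193 on 6 dimmer arrays and 224 to 316 on 6 brighter ones, each set holding 3 CSF1Ri and 3 Vehicle tumours. The 6 duct and tumour epithelial markers tested, keratins among them, were detected on all 12 arrays, while Epcam, also listed, was detected on none. Their list means were 11.30 to 11.95 in CSF1Ri and 11.09 to 12.01 in Vehicle tumours. Acinar markers, which show residual pancreas, ranged from 5.28 to 12.82 in CSF1Ri tumours and from 9.88 to 12.39 in Vehicle tumours, with 0 of 6 called and a median log2 fold change of -2.52. With the acinar mean as a covariate, chosen after seeing the data, the Csf1r log2 fold change given below was -1.32 (limma adjusted p = 0.0787).

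Of the 17 probes, 7 passed the filter of detection in at least 4 tumours, which left 6 genes tested, and Csf1r had 2 probes that passed. Of the 6 genes, 1 was lower and 0 were higher at an adjusted p under 0.05 (limma), against 0.215% of all genes lower and 0% higher. At an unadjusted p under 0.05, 3 of the 6 were lower (Csf1r, Csf2ra and Csf3r) and 0 were higher, against 3.8% and 3.73% of all genes. The median log2 fold change of the 6 genes was -0.46, against 0.012 over all genes tested. The plot of levels by tumour shows each of the 6 genes.

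**Figure D1:**
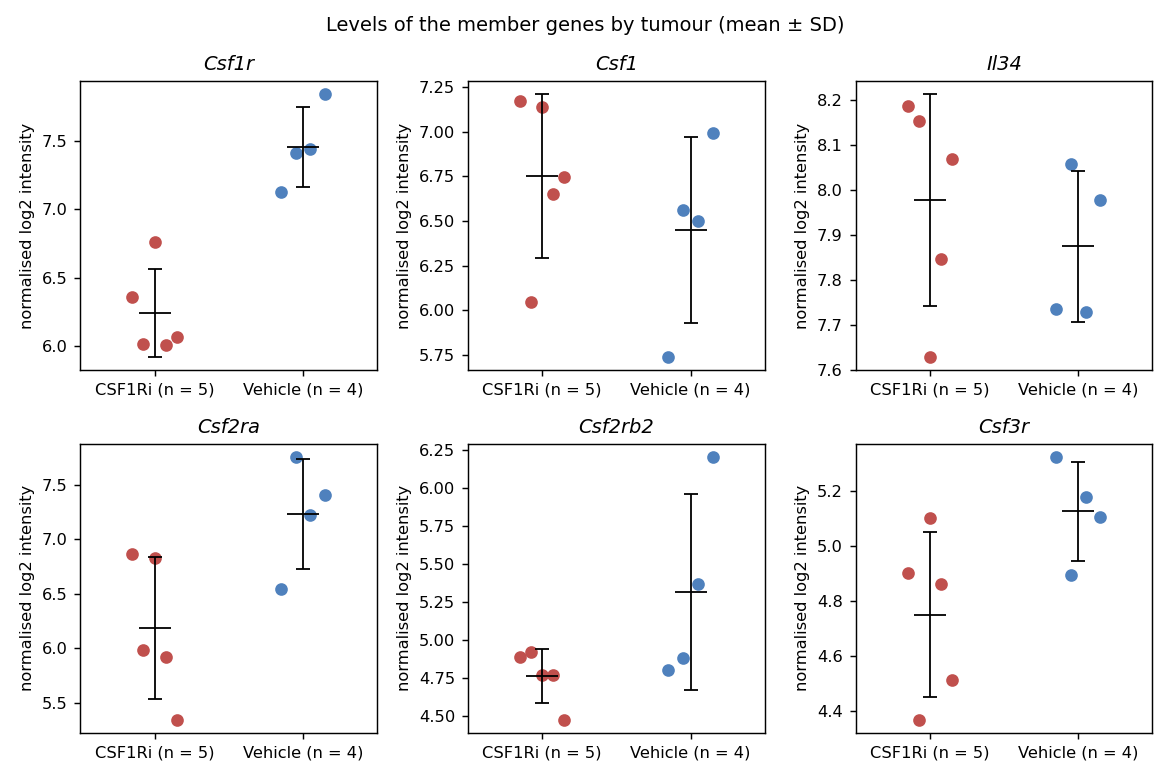
Normalised log2 intensity of the 6 genes that passed the filter, with CSF1Ri tumours left of Vehicle tumours, 1 point a tumour and mean ± SD in black. Each panel has its own axis, which does not start at 0. The groups are apart for Csf1r (highest CSF1Ri tumour 6.76, lowest Vehicle tumour 7.13) and overlap for the other 5 genes.

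Csf1r (Entrez Gene 12978) was read by probe ILMN_2710819 at 6.36, 6.02, 6.76, 6.01 and 6.06 in CSF1Ri tumours 1 to 5, against 7.13, 7.42, 7.44 and 7.84 in Vehicle tumours 1 to 4. The highest CSF1Ri tumour was thus under the lowest Vehicle tumour. Over all genes, 1.42% had groups apart in this direction and 1.46% in the other. Csf1r averaged 6.24 ± 0.32 in CSF1Ri and 7.46 ± 0.29 in Vehicle tumours, a log2 fold change of -1.22 (SE 0.19, 95% interval -1.64 to -0.79, limma adjusted p = 0.0345). On the authors' processed linear scale the same probe read 61.6 ± 21.9 in CSF1Ri and 164 ± 46.0 in Vehicle tumours. CSF1Ri 3 was the highest CSF1Ri tumour (97.1) and Vehicle 4 the highest Vehicle tumour (232).

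The other Csf1r probe, ILMN_1230485, had 5.43, 5.57, 5.77, 4.84 and 4.90 in CSF1Ri tumours, against 5.96, 7.08, 6.40 and 6.38 in Vehicle tumours, and also did not overlap. In a fit over the 16606 probes that passed the filter, of which 0.145% were lower and 0% higher at an adjusted p under 0.05, this probe had a log2 fold change of -1.16 (SE 0.25, adjusted p = 0.201). The first probe had an adjusted p of 0.0498 in that fit. Both were detected on all 12 arrays, but ILMN_1230485 read only 4.84 in CSF1Ri 4 and 4.90 in CSF1Ri 5. The lowest detected signal in these tumours was 4.76 and 4.75, so this probe can fall little further there. The highest Vehicle tumour was Vehicle 2 by this probe and Vehicle 4 by the other.

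The call of Csf1r depended on the setting more than its direction did. The 24 alternative settings gave log2 fold changes of -1.47 to -0.81, and the adjusted p was under 0.05 in 10 of them. Within the 6 brighter arrays it was -1.47 (adjusted p = 0.0309) and within the 6 dimmer arrays -0.81 (adjusted p = 0.639). Leaving out 1 tumour at a time gave -1.34 to -1.09 and kept the call only without CSF1Ri 3 or Vehicle 1. The 2 arrays of Vehicle 1 differed by 0.63 on the log2 scale for the first probe, more than the SD between Vehicle tumours, while those of Vehicle 3 differed by 0.24 and those of CSF1Ri 1 by 0.04.

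The ligand Csf1, made by tumour, stromal and endothelial cells, was at 7.17, 6.05, 7.14, 6.65 and 6.75 in CSF1Ri tumours and at 5.74, 6.56, 6.50 and 6.99 in Vehicle tumours. The groups overlapped across most of their range, with CSF1Ri 2 and Vehicle 1 low in their groups. The means were 6.75 ± 0.46 in CSF1Ri and 6.45 ± 0.52 in Vehicle tumours, with a log2 fold change of 0.30 (95% interval -0.32 to 0.92, limma adjusted p = 0.912). It was 0.067 without Vehicle 1 and 0.49 without Vehicle 4.

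Il34, the other ligand, had the smallest standard error of the 6 genes (0.14). It was at 8.19, 8.15, 7.63, 7.84 and 8.07 in CSF1Ri tumours and at 7.74, 8.06, 7.73 and 7.98 in Vehicle tumours. The Vehicle tumours lay inside the range of the CSF1Ri tumours. The means were 7.98 ± 0.24 in CSF1Ri and 7.87 ± 0.17 in Vehicle tumours, with a log2 fold change of 0.10 (95% interval -0.21 to 0.42, limma adjusted p = 0.960) and values from 0.049 to 0.22 under the 24 alternatives. Of other proteins known to bind IL-34, the syndecan gene Sdc1 averaged 8.24 ± 0.33 in CSF1Ri and 8.35 ± 0.21 in Vehicle tumours (adjusted p = 0.969), and the phosphatase gene Ptprz1 was detected on no array.

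The GM-CSF receptor alpha chain gene Csf2ra (probe ILMN_2866276) was at 6.86, 5.98, 6.82, 5.93 and 5.35 in CSF1Ri tumours, against 6.54, 7.75, 7.22 and 7.40 in Vehicle tumours. Vehicle 1 lay below CSF1Ri 1 and CSF1Ri 3, and the remaining 3 Vehicle tumours lay above every CSF1Ri tumour. Csf2ra averaged 6.19 ± 0.65 in CSF1Ri and 7.23 ± 0.51 in Vehicle tumours, a log2 fold change of -1.04 (SE 0.34, 95% interval -1.79 to -0.30), with a limma p of 0.0106 before and 0.408 after adjustment. It stayed above the threshold under all 24 alternatives, with log2 fold changes of -1.39 to -0.59, the smallest within the dimmer arrays. Its repeat arrays differed by at most 0.21.

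The shared beta chain gene Csf2rb was not measured well enough for a test. Probe ILMN_1236070 was detected on no array, ILMN_1253312 on 2 of 6 CSF1Ri and 3 of 6 Vehicle arrays, and ILMN_2688262 on 2 of 6 CSF1Ri and 1 of 6 Vehicle arrays. The related gene Csf2rb2 (probe ILMN_2750047) passed the filter through 3 tumours of each group. It was at 4.89, 4.92, 4.77, 4.77 and 4.47 in CSF1Ri tumours and at 4.80, 4.88, 5.37 and 6.21 in Vehicle tumours, so that 2 Vehicle tumours lay among the CSF1Ri tumours and Vehicle 4 far above all. The lowest detected signal was 4.75 to 4.87 for the tumours, and a fall below it cannot be read. The log2 fold change was -0.55 (SE 0.26, limma adjusted p = 0.686), and -0.25 without Vehicle 4 and -0.12 within the dimmer arrays, which do not hold Vehicle 4. As Csf2rb and Csf2rb2 are near-identical copies, cross-hybridisation between their probes was not tested.

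Csf3r, the G-CSF receptor of neutrophils, had 5 probes, of which 3 were detected on no array and ILMN_2806180 on 1 of 6 CSF1Ri and 1 of 6 Vehicle arrays. Only ILMN_1255648 passed, with 4 of 6 CSF1Ri and 5 of 6 Vehicle arrays. It read 4.90, 4.37, 5.10, 4.86 and 4.51 in CSF1Ri tumours, against 5.33, 4.90, 5.18 and 5.10 in Vehicle tumours. CSF1Ri 3, CSF1Ri 1 and Vehicle 2 overlapped. The log2 fold change was -0.38 (SE 0.16), with a limma p of 0.0424 before and 0.624 after adjustment, and the value was -0.16 on dimmer arrays alone and -0.63 on brighter ones. The group differences of the remaining Csf3r probes were -0.11 to 0.0052. The 2 arrays of Vehicle 3 differed by 0.77 for the passing probe, more than the difference between the groups.

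**Figure D2:**
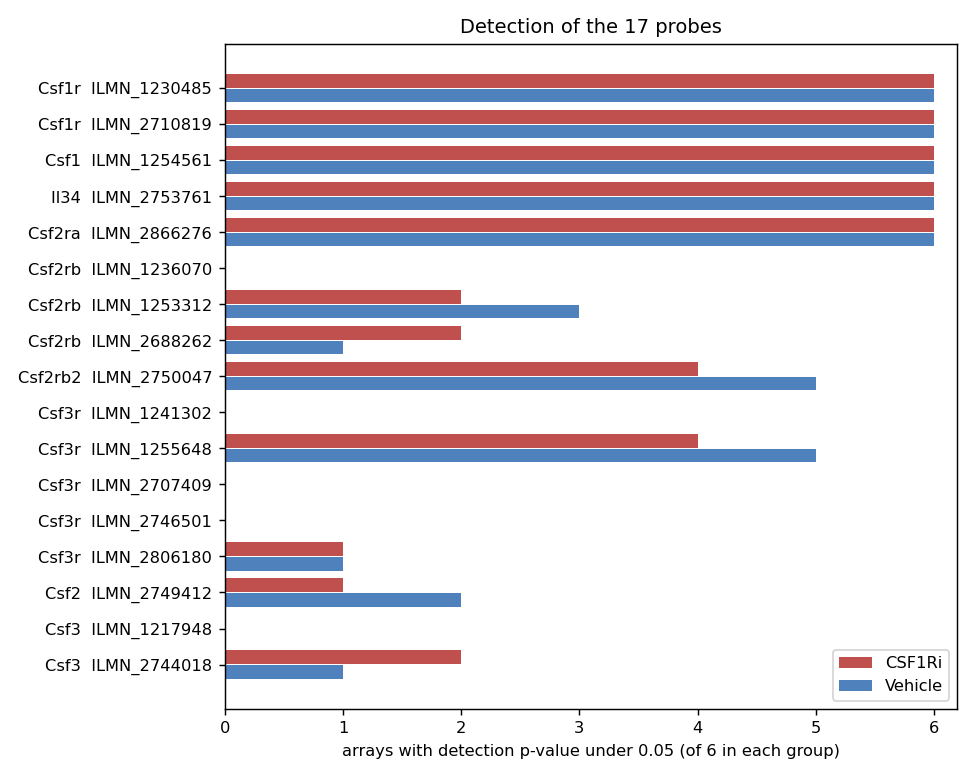
Number of arrays, of 6 in each group, on which each of the 17 probes had a detection p-value under 0.05, with the CSF1Ri bar above the Vehicle bar. Both Csf1r probes and those of Csf1, Il34 and Csf2ra were detected on every array, 5 probes on none, and the others on some arrays of both groups.

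The ligands Csf2 and Csf3 were near the limit in both groups. Csf2 was detected on 1 of 6 CSF1Ri and 2 of 6 Vehicle arrays, and all 3 of these were the second hybridisations of CSF1Ri 1, Vehicle 1 and Vehicle 3, whose first arrays did not detect it. Csf2 averaged 4.56 ± 0.19 in CSF1Ri and 4.47 ± 0.21 in Vehicle tumours. Csf3 probe ILMN_1217948 was detected on no array, and ILMN_2744018 on 2 of 6 CSF1Ri and 1 of 6 Vehicle arrays, with 5.16 in CSF1Ri 3 and 5.10 in CSF1Ri 5 and 4.42 to 4.58 in the other CSF1Ri tumours, and 4.51 to 4.78 in Vehicle tumours. Taking all 10 probes under the filter, the differences between groups were -0.11 to 0.16 on the log2 scale. In a limma fit over all 45281 probes, none of these 10 had an unadjusted p under 0.155 or an adjusted p under 0.953. A change in these genes below the detection limit was not detectable here.

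**Figure D3:**
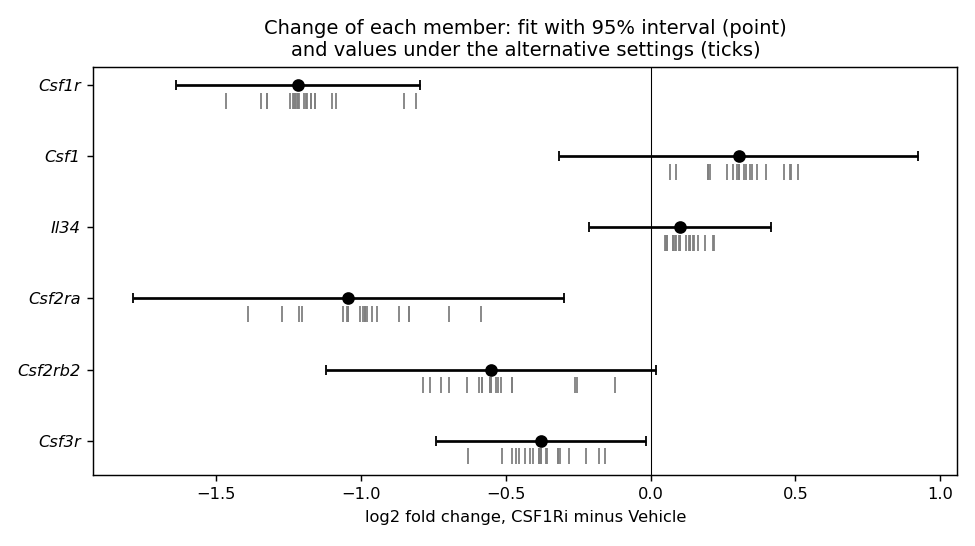
Log2 fold change (CSF1Ri minus Vehicle) of the 6 tested genes. Black points and bars are the limma fit with its 95% interval, and grey ticks below them are the values under the alternative settings. No gene changed sign. The interval of Csf1r runs from -1.64 to -0.79, and that of Il34 from -0.21 to 0.42.

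The fall of Csf1r was set against macrophage markers. In whole tumours, fewer cells of a type and less RNA per cell cannot be told apart. Of 11 macrophage markers tested, 2 were lower (Mrc1 and Ms4a7) and 0 higher, against 0.215% and 0% of all genes. One of the 11, Siglec1, was detected in 0 CSF1Ri and 4 Vehicle tumours and so passed the filter through Vehicle alone. Of the 8 markers detected on all 12 arrays, which hold both called genes, 5 did not overlap in the lower direction, against 1.42% of all genes, and their median log2 fold change was -1.40. The mean of the 11 was 7.11 to 7.87 in CSF1Ri and 8.16 to 8.80 in Vehicle tumours. Of 5 monocyte markers tested, 2 were lower (Cx3cr1 and Clec4a1) and 0 higher, against 0.215% and 0% of all genes. Both had lower detection in CSF1Ri tumours. Cx3cr1 was detected in 1 CSF1Ri and 4 Vehicle tumours and averaged 4.72 in CSF1Ri and 7.27 in Vehicle tumours, and its CSF1Ri mean lies under the lowest detected signal, so its fitted change has no measured lower end. Clec4a1 was detected in 3 CSF1Ri and 4 Vehicle tumours. Of the 3 monocyte markers detected on all arrays, 0 were called by limma in either direction. At an unadjusted limma p under 0.05, 2 of the 3 were lower and 0 higher, against 3.8% and 3.73% of all genes. None of 7 dendritic cell markers, which mark other cells with GM-CSF receptors, passed the filter. The level of Csf1r minus the macrophage mean was -1.22 ± 0.12 in CSF1Ri and -1.12 ± 0.31 in Vehicle tumours, a difference of -0.10 (two-sided exact permutation p = 0.563, and 0.751 adjusted over the 4 receptors compared in this way). The value for Csf2ra was 0.072 (exact permutation p = 0.786, adjusted p = 0.786) and for Csf2rb2 0.56 (exact permutation p = 0.119, adjusted p = 0.238). Csf2rb2 lay at 4.47 to 4.92 in CSF1Ri tumours, at the lowest detected signal, and can fall little there, so its value cannot be read as a smaller fall than that of the markers. It was 0.34 without Vehicle 2 and 0.86 without Vehicle 4. With only the 8 markers detected on all arrays, a choice made after seeing the data, the differences were -0.088 for Csf1r, 0.085 for Csf2ra and 0.58 for Csf2rb2.

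**Figure D4:**
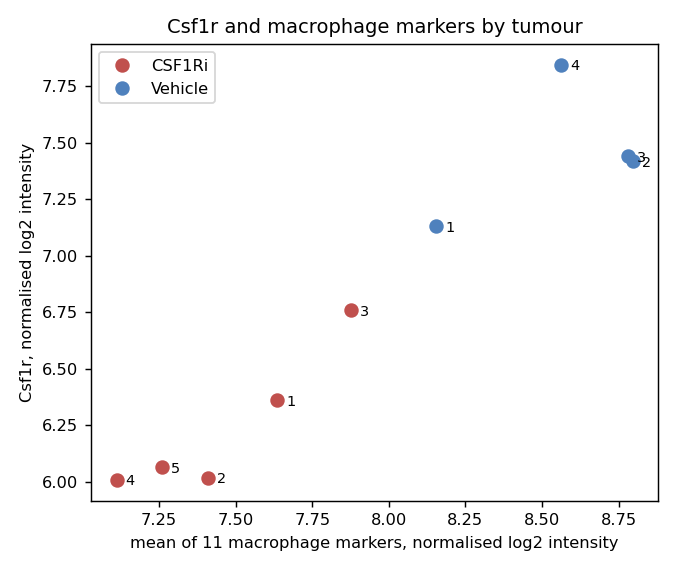
Csf1r (vertical axis) against the mean of 11 macrophage markers (horizontal axis) in each tumour, both in normalised log2 intensity, with the tumour number beside each point. CSF1Ri tumours lie at 7.11 to 7.87 on the marker axis and Vehicle tumours at 8.16 to 8.80, and Csf1r is 6.01 to 6.76 and 7.13 to 7.84 in them.

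Csf3r was set against 10 neutrophil markers, of which 2 were lower (Mmp9 and Trem1) and 0 higher, against 0.215% and 0% of all genes. List means were 5.87 to 7.68 in CSF1Ri and 7.37 to 9.54 in Vehicle tumours. Only 4 of the 10 were detected on all 12 arrays, and the others were missed on some CSF1Ri but no Vehicle arrays. Trem1 was detected in 3 CSF1Ri and 4 Vehicle tumours and averaged 4.85 in CSF1Ri tumours, near the lowest detected signal. The 10 markers had a mean log2 fold change of -1.95, against -0.38 for Csf3r. The difference between the 2 changes was 1.58 (exact permutation p = 0.0238, adjusted p = 0.0952), and 1.74 against the 4 neutrophil markers detected on all arrays, which hold Mmp9 and not Trem1. Csf3r lay at the detection limit in several tumours, where it can fall little, and the part of this in the difference was not tested.

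Between tumours of the same group, Csf3r followed the neutrophil markers. With the group means taken off, their Pearson r over the 9 tumours was 0.84 (Spearman rho 0.83), and 0.79 without the 2 tumours with the most extreme Csf3r. This was the highest r of Csf3r among 11 marker lists. The next was close to it, r = 0.77 with 4 erythroid markers (rho 0.75, and 0.74 without the same 2 tumours). Csf3r was read by a single probe near the detection limit, with an SD of 0.30 in CSF1Ri and 0.18 in Vehicle tumours. Its second array minus its first was 0.77 in Vehicle 3, 0.25 in Vehicle 1 and -0.10 in CSF1Ri 1. Array error of that size limits these correlations. Csf2ra had r = 0.84 with the macrophage markers and 0.89 with 4 T cell markers. For Csf1r, r was 0.87 with fibroblast markers (0.56 without the 2 extreme tumours), 0.80 with T cell markers (0.80 without them), 0.76 with 1 B cell marker (0.71 without them) and 0.74 with the macrophage markers (0.88 without them), which ranked 4 of 11. Csf1r and Csf1 deviated together, with r = 0.82 (rho 0.92, and 0.86 without the 2 extreme tumours), the highest of the 15 pairs of tested members. Il34 had r = -0.22 with Csf1r (rho -0.017), but r = 0.47 without the 2 tumours with the most extreme Csf1r, so its sign was not stable. These are descriptions over 9 tumours that share their arrays and normalisation.

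The genes whose deviations were most like those of Csf1r were Bcl2a1d (r = 0.97), Myh11 (0.97), Atat1 (0.96), Ptpn18 (0.96) and Mcm10 (0.95). Limma called none of them, with log2 fold changes of -1.21, -0.032, -0.12, -0.56 and 0.033 in that order. The genes most like Csf2ra were Fcgr4 (0.98), Lag3 (0.98), Psd4 (0.96), Kcnab2 (0.96) and Lat2 (0.96). For Csf1 they were Kif18b (0.96), Tgfbi (0.94), Clec7a (0.93), 2410002F23Rik (0.92) and Ch25h (0.92). For Il34 they were Gnl3 (0.96), Nmb (0.96), Snap47 (0.95), Zcchc4 (0.94) and Vmn1r84 (0.94). For Csf2rb2 they were Plp2 (0.97), Dnmt1 (0.95), Spata2 (0.94), Ncapg2 (0.90) and Samd1 (0.90), and for Csf3r Ipcef1 (0.95), Vta1 (0.94), Dmrt2 (0.93), Zc4h2 (0.93) and Kctd6 (0.92). Each set is the top 5 of 9788 genes over 9 points and was picked for its height.

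Genes that act with or below the receptors were counted in 5 lists. In the CSF1R signalling and lineage list, 1 of 16 tested members was lower over all genes and 0 were higher (limma), with 6 lower and 0 higher at an unadjusted p under 0.05 and a list median of -0.54. Over all genes these shares were 0.215% and 0% at the adjusted threshold, and 3.8% lower and 3.73% higher unadjusted. Of the 11 members detected on all arrays, 0 were called by limma in either direction, and 4 were lower and 0 higher unadjusted. The member called was Spi1, which encodes PU.1, a transcription factor that drives Csf1r, Csf2ra and Csf3r transcription in myeloid cells. Spi1 averaged 4.71 ± 0.22 in CSF1Ri and 5.63 ± 0.21 in Vehicle tumours (log2 fold change -0.92, SE 0.14, adjusted p = 0.0345) and was detected on 3 of 6 CSF1Ri and 6 of 6 Vehicle arrays, with its CSF1Ri mean under the lowest detected signal. Next by p, and chosen after their values were seen, were the lipid phosphatase gene Inpp5d (-0.99, adjusted p = 0.163), the kinase gene Pik3cg (-0.63, adjusted p = 0.218) and the adaptor gene Tyrobp (-1.31, adjusted p = 0.235). The transcription factor genes Runx1 (0.0034), Cebpa (0.10) and Irf8 (0.077), also chosen after their values were seen, had log2 fold changes near 0. Cebpa was detected on 6 of 6 CSF1Ri and 4 of 6 Vehicle arrays. It lay at 4.78 to 5.67 in Vehicle tumours, partly at the detection limit.

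The lists for the other receptors had medians near that of all genes. For GM-CSF family signalling, 0 of 8 passed in either direction (limma), 0 also at an unadjusted p under 0.05, with a median of -0.021. The first by p were Cish (0.22), a feedback inhibitor induced by STAT5, the related Socs1 (0.28) and the survival gene Bcl2l1 (-0.11), and Il3, Il5, Il5ra and Stat5b were detected on no array. For G-CSF signalling, 0 of 8 passed, with a median of -0.035. At an unadjusted limma p under 0.05, 1 was lower (the neutrophil factor Gfi1, -0.37) and 0 higher, against 3.8% and 3.73% of all genes. Gfi1 was detected on 2 of 6 CSF1Ri and 4 of 6 Vehicle arrays. Its CSF1Ri mean of 4.73 lay under the lowest detected signal. The signal transducer gene Stat3 was at 0.24 and the kinase gene Tyk2 at -0.081. Among receptor kinases related to CSF1R and their ligands, 0 of 5 passed, 0 also at an unadjusted p under 0.05, with a median of -0.092. Kit, the stem cell factor receptor, was at -0.21, Pdgfrb at -0.12 and Pdgfa at -0.092, while Kitl, Flt3 and Flt3l did not pass the filter.

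**Figure D5:**
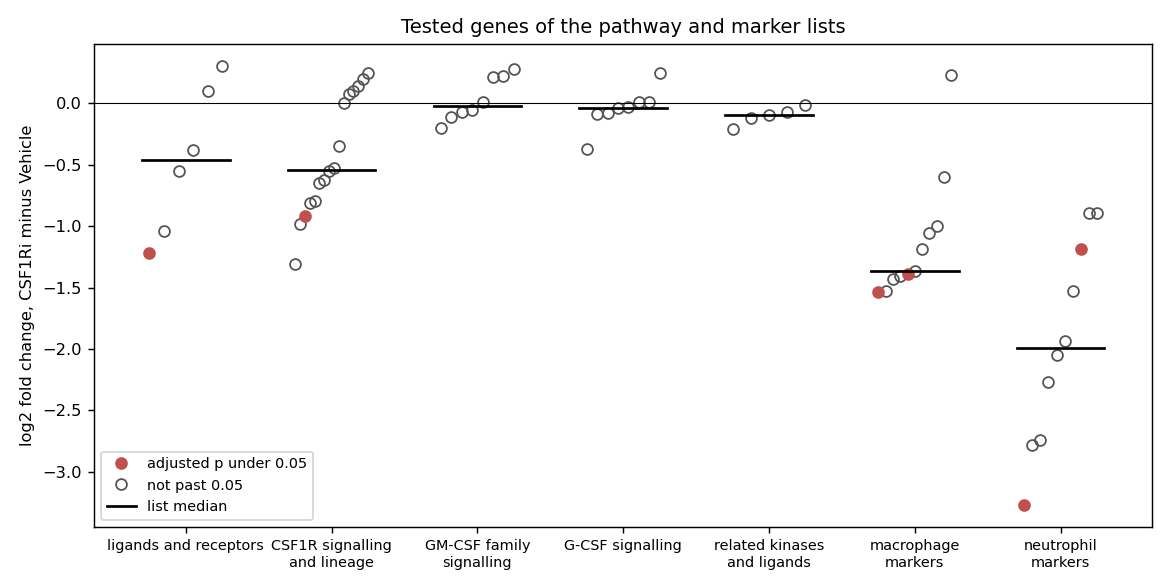
Log2 fold change (CSF1Ri minus Vehicle) of each tested gene of the pathway lists and of the macrophage and neutrophil markers, 1 point a gene, filled where the adjusted p was under 0.05, with the list median as a line. Medians are -0.46 for the ligands and receptors, -0.54 for CSF1R signalling, between -0.092 and -0.021 for the next 3 lists, -1.37 for macrophage and -1.99 for neutrophil markers.

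The 250 bases before the gene start were searched for GAGGAA, the core that PU.1 prefers, and its reverse complement TTCCTC. RefSeq promoters (GRCm38.p6) were searched for 5 of the 9 genes, and the sequence of Csf1r is not reported here. The receptor genes below each held the motif, shown in capitals and read 5′ to 3′ along the gene, and Csf1 and Csf2 did not. Of 32851 RefSeq promoters, 23.3% held it on either strand.
Csf2ra (chr19:61228419-61228668, minus strand): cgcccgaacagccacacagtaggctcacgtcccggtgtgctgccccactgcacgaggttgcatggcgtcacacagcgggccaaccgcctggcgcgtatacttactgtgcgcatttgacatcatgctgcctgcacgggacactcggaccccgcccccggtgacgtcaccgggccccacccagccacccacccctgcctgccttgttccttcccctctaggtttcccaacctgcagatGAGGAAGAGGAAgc
Csf3r (chr4:126024409-126024658, plus strand): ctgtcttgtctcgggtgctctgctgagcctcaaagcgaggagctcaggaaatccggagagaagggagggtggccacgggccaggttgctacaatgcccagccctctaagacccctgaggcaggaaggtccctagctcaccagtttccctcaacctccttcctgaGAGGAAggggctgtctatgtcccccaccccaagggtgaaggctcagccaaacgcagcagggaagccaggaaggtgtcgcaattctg
Csf2rb2 (chr15:78305722-78305971, minus strand): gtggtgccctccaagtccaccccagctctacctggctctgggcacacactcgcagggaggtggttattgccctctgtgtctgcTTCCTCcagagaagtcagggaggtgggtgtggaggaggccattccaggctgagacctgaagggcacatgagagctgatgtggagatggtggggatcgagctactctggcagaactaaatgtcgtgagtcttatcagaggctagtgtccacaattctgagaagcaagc
Csf2ra had 2 matches in tandem, beginning 14 and 8 bases before the start, Csf3r had 1 beginning 86 bases before it, and Csf2rb2 had 1 on the opposite strand, 167 bases before it. A match describes these letters only.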

How the data were processed

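Per the labels' protocols, total RNA was treated with DNase and turned into biotin-labelled cRNA. For 45281 probes on 12 arrays the deposited table gives an intensity beside a detection p-value, per the file headers. The intensity is linear, already background-subtracted (it falls below 0) and not scaled between arrays. A second deposited table holds the authors' processed intensity, the same values times 1 factor for each array (0.672 to 1.49). The sources used here name no scanner software.

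The unscaled intensities were normalised over 12 arrays with neqc in limma 3.58.1 (R 4.3.3), which estimates background through detection p-values, then uses an offset of 16, quantile normalization and log2. The offset shrinks fold changes at low signal. Arrays of a tumour were averaged. Probes detected (p-value under 0.05) on all arrays of 4 or more tumours were kept (16606 probes), and the brightest kept probe with a single symbol stood for a gene (9788 genes). Symbols came from the platform annotation, which gave 34885 probes 1 symbol, 18 several and 10378 none.

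CSF1Ri and Vehicle were compared with lmFit and eBayes, no covariate, with Benjamini-Hochberg adjustment over all genes. A receptor's change relative to marker lists was tested over all 126 splits of the 9 tumours (smallest possible p 0.00794), in 4 of 5 intended contrasts because Csf2rb did not pass the filter. The labels do not say whether the tumours come from 1 experiment, so p-values measure the spread between these tumours only. Their precision is limited by the number of tumours, 5 CSF1Ri and 4 Vehicle. The fit was tested on simulated data. The labels do not say whether the replicate numbers pair the tumours, and the fit treated them as unpaired. Deviations of same-numbered tumours correlated between -0.09 and 0.34, which cannot settle whether the numbers mark a shared batch.

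All members and probes are described. The genes named beside them were, in each pathway list, those called, otherwise the 3 smallest p (6 further CSF1R signalling genes and the marker Siglec1 were named after their values were seen), in marker lists those called, and for likeness the 5 highest correlations of each member. The members and lists were chosen with earlier results of these data known.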

Additional observations from a re-analysis of the deposited data

Results flagged for a closer look

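In 1 of 34 groups of tumours examined, 2 for each of 17 probes, a single tumour stood far from the others, where chance gives about 1 in 20. Csf2rb probe ILMN_2688262 was at 5.18 in Vehicle 2, against 4.43 to 4.51 in the other Vehicle tumours, and this gap was 0.896 of the group's range. Vehicle 2 was also the highest Vehicle tumour by Csf2rb probe ILMN_1253312 (5.06, against 4.43 to 4.96 in the other Vehicle tumours), and the lowest by ILMN_1236070 (4.319, against 4.326 to 4.453), which was detected on no array.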

How the results depend on the processing

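Under 24 alternatives, Csf1r, Csf1, Il34 and Csf2ra kept their direction, and so did Csf2rb2 and Csf3r under the 23 that could give a value (they do not pass detection in all 9 tumours). Csf1r lost its call with the authors' processed values (log2 fold change -1.21, adjusted p = 0.0759), median scaling (-1.23, 0.0546), no filter (-1.22, 0.0980), second hybridisations left out (-1.10, 0.113), the dimmer arrays (-0.81, 0.639), and an acinar covariate chosen after seeing the data (-1.32, 0.0787). Leaving out 1 tumour gave -1.34 to -1.09 with adjusted p of 0.0106 to 0.142. The replicate number as a block, which drops CSF1Ri 5, gave -1.17 (adjusted p = 0.245) and 1 gene lower and 0 higher over all genes, and only 1 of 8 tumours correlated best with the tumour of its own number. No other member's call changed with the block.

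The count of 21 lower genes became 12 with median scaling, 12 without a filter, 10 with detection in all tumours, 41 with all arrays and the tumour as a random block, 46 with array brightness as a block, 41 with array weights, 1 in the dimmer and 11 in the brighter arrays, and 8 with the acinar covariate. It was 11 to 34 on leaving out 1 tumour, below 14 without CSF1Ri 5, Vehicle 2, Vehicle 3 or Vehicle 4 and highest without CSF1Ri 3. The count of 0 higher genes became 2 with normexp and an offset of 50, 1 without a filter, 4 with the tumour as a random block, 6 with brightness as a block, 3 with array weights, 1 with probes of a gene averaged, and 0 to 1 on leaving out 1 tumour. The causes were not tested.

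Csf1r minus macrophage markers was 0.025 with normexp and an offset of 50, and -0.19 to 0.032 on leaving out 1 tumour, positive without Vehicle 4 only. Csf2ra minus macrophage markers was -0.052 to 0.23 on leaving out 1 tumour, negative without CSF1Ri 1 (-0.052) or Vehicle 1 (-0.018). Csf2rb2 minus macrophage markers was 0.34 to 0.86 and Csf3r minus neutrophil markers 1.27 to 1.85 on leaving out 1 tumour. With normexp the contrasts of Csf2rb2 (0.61) and Csf3r (1.30) passed at an adjusted p of 0.0476 each, by exact permutation. Signal near background limits Csf2rb, Csf2rb2, Csf3r, Csf2 and Csf3.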
